A study of Mus musculus with 8 samples.

Results

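The 10 genes described here belong to the insulin-like growth factor (IGF), insulin and growth hormone axis of the liver: Igf1, Igfals, Igfbp1, Igfbp2, Igfbp4, Ghr, Insr, Irs1, Irs2 and Foxo1. They were taken by gene symbol from a table of raw read counts of 56748 genes, in which each symbol matched a single gene. All 10 were among the 14279 genes with enough reads to be tested. Their mean count over the libraries lay between 162 for Irs1 and 28310.1 for Igfbp1.

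RNA of mouse primary hepatocytes was sequenced in 8 libraries, 2 in each of 4 groups that combine genotype and culture substrate. Every mouse was C57BL/6J with floxed alleles of both genes (Yap fl/fl; Taz fl/fl), and each was injected with a virus at 7 to 8 weeks of age. AAV8-TBG-Cre, in which the thyroxine-binding globulin promoter restricts Cre to hepatocytes, gave the Yap/Taz knockout (KO). The study's methods also describe a Cre-dependent tdTomato allele in this line and state that Cre induced this fluorescent reporter. KO cells may thus express Cre and the reporter where WT cells do not. AAV8-TBG-Null gave the control, which is called wild type (WT) although its alleles were floxed and it too had received a virus. Hepatocytes were isolated 10 days after injection and kept for 24 h on collagen-coated polyacrylamide hydrogels that were soft (1 kPa) or stiff (20 kPa). YAP and TAZ, the latter encoded by Wwtr1, are transcriptional coactivators that respond to the mechanical state of a cell. The design asks which genes respond to substrate stiffness and whether the response needs YAP and TAZ. Other liver cells carried along in the preparation keep both genes in the KO, since the promoter is not active in them. The culture protocol names William's E medium and lists no added insulin, growth hormone or glucocorticoid. The labels do not tie libraries to mice, so p-values measure the spread between these libraries, which may be technical.

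In the liver, growth hormone binds its receptor GHR and, through JAK2 and STAT5, drives transcription of Igf1 and of Igfals, the acid-labile subunit that holds circulating IGF1 in a ternary complex. IGF-binding proteins bind IGF1 and limit or prolong its action, and IGFBP1 is the member of the family that the liver regulates acutely. Insulin acts through INSR and the adaptors IRS1 and IRS2 to activate AKT, which removes the transcription factor FOXO1 from the nucleus. FOXO1 is known to drive Igfbp1, Irs2 and the gluconeogenic gene G6pc when insulin signaling is low.

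Library totals lay between 18324083 and 26442310 counts. Yap1 had between 1720 and 2913 counts in the 4 WT libraries and between 606 and 747 in the 4 KO libraries, and Wwtr1 had 748 to 1325 against 277 to 410. These are counts over whole genes, so reads from outside the deleted exons are included. The 8 hepatocyte markers were counted in every group, with Alb as the most abundant. The labels disagree on the sex of the mice, and the study's methods name males. The counts of sex-linked genes that follow have the pattern of female cells. Xist was counted in every library, and Ddx3y, Kdm5d, Uty and Eif2s3y had 0 counts in all 8, which allows up to 3 counts or 0.116 to 0.167 CPM, a limit that covers counting error only. CPM is the read count scaled to a common library size after TMM normalisation.

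The sequences just before the transcription start were read for 4 members whose windows hold short motifs of the factors named above. RefSeq start sites on build GRCm38.p6 gave 13 windows of 250 bases for 9 of the members (all but Insr), out of 32851 windows for all genes. Each window was searched on both strands for the core of the insulin response element (CAAAACA), a FOXO core (GTAAACA), a STAT5 site (TTCNNNGAA, which reads the same on both strands) and a TEAD site (CATTCC), the motif of the factors that YAP and TAZ join. Of all windows, 5.56% held the insulin response core, 3.17% the FOXO core, 7.02% the STAT5 motif and 12.6% the TEAD motif. Capitals mark the matches. Bases that the GENCODE annotation places in an exon of the gene were left out, 5 for Igfbp1 and 16 for Igfals. The Igfals stretch lies inside an intron of a longer annotated transcript and before the start of a shorter one.
Igfbp1, chr11:7197537-7197781, plus strand: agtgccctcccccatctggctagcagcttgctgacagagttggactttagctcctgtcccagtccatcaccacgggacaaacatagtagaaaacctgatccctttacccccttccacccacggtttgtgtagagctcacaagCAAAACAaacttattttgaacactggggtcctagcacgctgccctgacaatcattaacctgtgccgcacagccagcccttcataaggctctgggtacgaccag
Irs1, chr1:82291440-82291689, minus strand: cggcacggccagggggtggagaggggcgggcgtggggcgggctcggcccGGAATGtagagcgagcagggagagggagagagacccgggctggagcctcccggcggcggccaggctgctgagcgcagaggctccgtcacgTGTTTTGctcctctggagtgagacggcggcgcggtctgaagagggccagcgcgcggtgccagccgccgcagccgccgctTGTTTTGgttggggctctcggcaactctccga
Irs2, chr8:11008930-11009179, minus strand: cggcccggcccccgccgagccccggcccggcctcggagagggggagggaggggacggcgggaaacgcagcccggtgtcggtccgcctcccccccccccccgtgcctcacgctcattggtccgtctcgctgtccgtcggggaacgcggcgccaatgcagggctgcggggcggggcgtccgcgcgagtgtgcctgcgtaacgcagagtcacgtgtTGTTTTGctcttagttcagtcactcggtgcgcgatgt
Igfals, chr17:24877981-24878214, plus strand: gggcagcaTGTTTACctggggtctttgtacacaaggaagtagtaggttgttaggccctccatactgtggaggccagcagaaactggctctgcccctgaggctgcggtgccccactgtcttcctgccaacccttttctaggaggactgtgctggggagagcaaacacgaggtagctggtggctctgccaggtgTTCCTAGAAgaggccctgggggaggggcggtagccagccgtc

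The insulin response core stood 108 bases before the Igfbp1 start and, on the other strand, 37 bases before that of Irs2. Irs1 held the core at 111 and at 32 bases before its start, both on the other strand, and a TEAD match at 201 bases. For Irs1 and Irs2 the first bases after the RefSeq start were not found in a GENCODE transcript of the gene. Their distances therefore hold for the RefSeq starts only. In the Igfals stretch a FOXO match began 242 bases and a STAT5 match 58 bases before the start, and a further Igfals window held a STAT5 and a TEAD match. The other members' windows held none of the 4 motifs. A match is a description of these letters and does not show that a factor was bound.

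Between the stiff and soft hydrogel, 5 of the 10 genes were called in WT hepatocytes and 0 in KO hepatocytes. A gene was called when edgeR's quasi-likelihood test gave a Benjamini-Hochberg adjusted p under 0.05 over all tested genes and the log2 fold change was over 0.5 in size. In WT cells Igf1 and Igfals rose on the stiff hydrogel, and Igfbp1, Igfbp4 and Irs1 fell, which is 50% of the members where 19.3% of all tested genes were called. The members were chosen with earlier results of these data known, so this is not an independent comparison. Of all genes, 10% were called higher and 9.26% lower. The median log2 fold change was -0.13 over the members and -0.01 over all genes. The stiff and soft WT libraries did not overlap for any of the 10 members, as was so for 68.9% of all genes.

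In KO cells, 3 of all tested genes were called between the hydrogels (0.021%), 0.014% higher and 0.007% lower, and none of them was a member. The stiff and soft KO libraries did not overlap for 8 of the 10 members, all but Igfals and Foxo1, and for 38.1% of all genes. At an unadjusted p under 0.05, edgeR's test counted 1 member (Igf1) and 7.54% of all genes, and DESeq2 called 0 members. KO estimates of the members spanned -0.27 to 0.14 on the log2 scale. The interaction, the stiffness effect in KO minus that in WT, was called for 6 members: lower for Igf1, Igfals and Irs2 and higher for Igfbp1, Igfbp4 and Irs1. It was called for 16.8% of all genes, 8.64% in the positive and 8.21% in the negative direction.

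**Figure D1:**
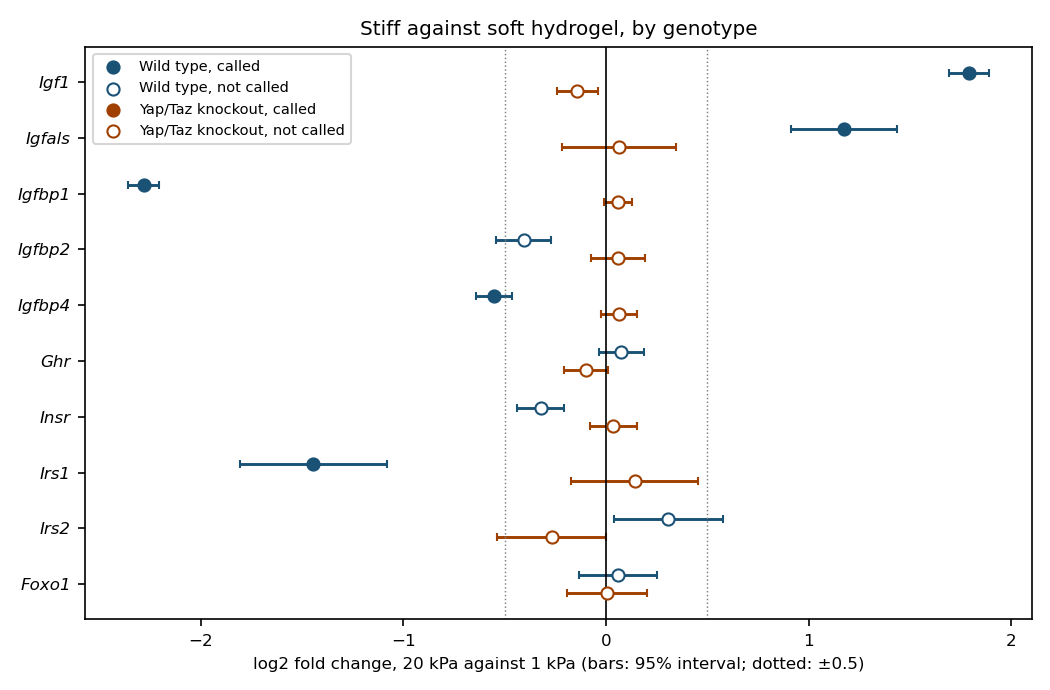
Log2 fold change of stiff (20 kPa) against soft (1 kPa) hydrogel for each of the 10 genes in wild-type (blue) and Yap/Taz knockout (brown) hepatocytes, with bars for the 95% interval, filled points for called genes and dotted lines at 0.5 and -0.5. The wild-type estimates run from -2.28 for Igfbp1 to 1.79 for Igf1, and the knockout estimates from -0.27 to 0.14 with no filled point.

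Igf1, the ligand of the axis (ENSMUSG00000020053, chromosome 10 at 87694127 to 87772904 as deposited), rose on the stiff hydrogel in WT cells. The WT libraries held 108 and 104 CPM on the soft and 369 and 367 CPM on the stiff hydrogel. The KO libraries held 76.7 and 79.5 CPM on the soft and 70.9 and 70.7 CPM on the stiff hydrogel. Both WT stiff libraries stood far above the other 6, and all KO libraries lay below all WT libraries. In WT cells the stiff level was 3.46-fold the soft level (log2 fold change 1.79, SE 0.046, edgeR adjusted p = 2.20e-15). In KO cells the log2 fold change was -0.14, with a 95% interval of -0.24 to -0.04 and an edgeR adjusted p of 0.597. The interaction was -1.93 (SE 0.067, edgeR adjusted p = 4.41e-13).

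Knockout and wild type were also compared on each hydrogel, with the same libraries as the comparisons of stiffness, so the 2 kinds of value are not independent. On the stiff hydrogel Igf1 was lower in KO than in WT by a log2 fold change of -2.38 (SE 0.048, edgeR adjusted p = 2.10e-17). On the soft hydrogel the log2 fold change was -0.44 (SE 0.048, edgeR adjusted p = 1.60e-06), which did not reach the fold-change threshold. Ordered by mean level, WT stiff stood first, then WT soft, KO soft and KO stiff, and the step between the 2 KO groups did not pass the test.

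Igfals, which encodes the acid-labile subunit (ENSMUSG00000046070, chromosome 17 at 25084971 to 25100984 as deposited), followed the same order at its upper end. Its WT libraries held 14.4 and 14.4 CPM on the soft and 31.7 and 33.5 CPM on the stiff hydrogel. Over all libraries it had 235 to 660 counts. The KO libraries held 12.2 and 14.5 CPM on the soft and 16.1 and 11.6 CPM on the stiff hydrogel. The WT stiff libraries were the highest, and the other 3 groups overlapped. The stiff level in WT was 2.26-fold the soft level (log2 fold change 1.18, SE 0.125, edgeR adjusted p = 4.76e-07). The interaction was -1.11 (SE 0.183, edgeR adjusted p = 0.000141), and KO against WT on the stiff hydrogel was -1.23 (SE 0.126, edgeR adjusted p = 1.72e-07). Neighbouring levels among WT soft, KO stiff and KO soft did not differ beyond the spread, and the KO stiffness estimate of 0.06 had an interval from -0.22 to 0.35. The sign of that estimate turned when either KO soft replicate 1 (-0.07) or KO stiff replicate 1 (-0.20) was left out.

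**Figure D2:**
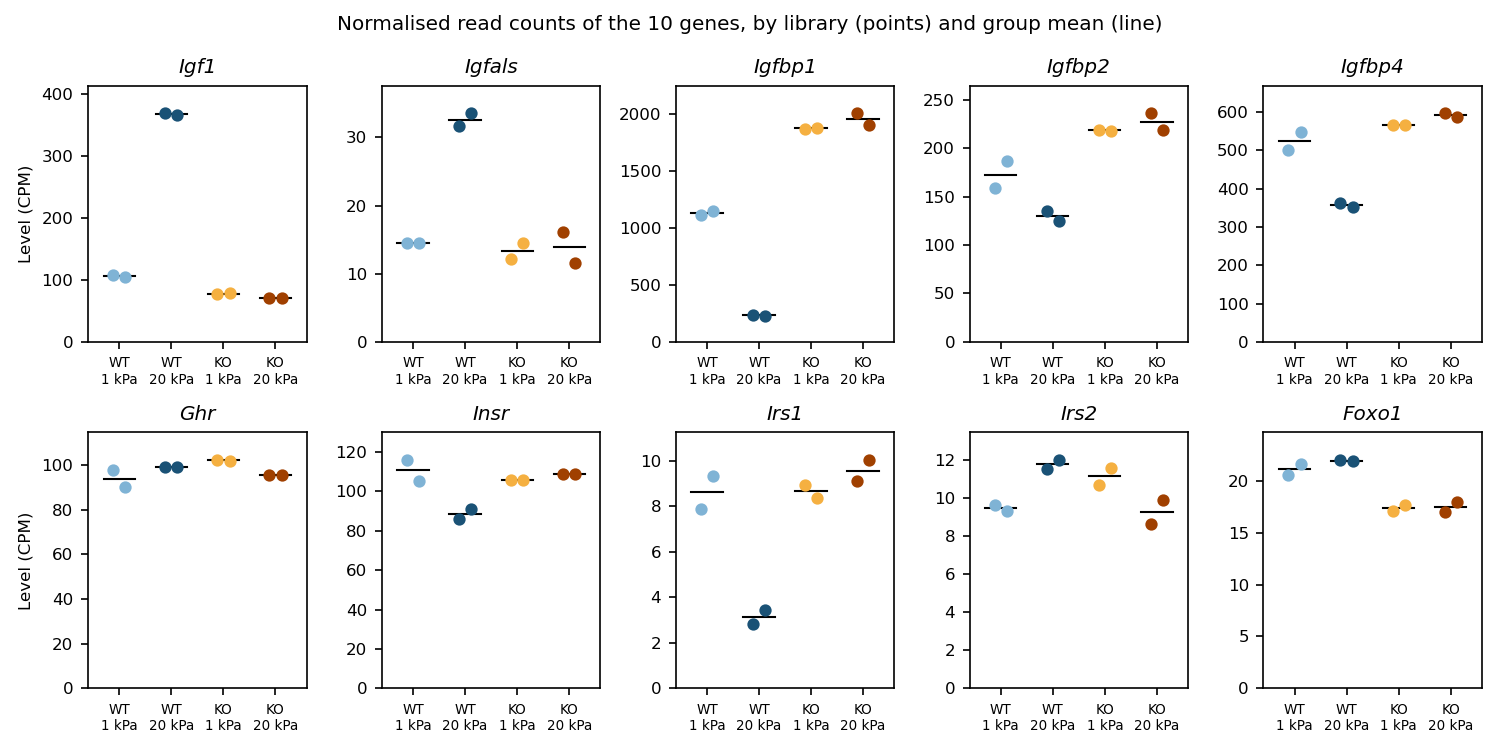
Normalised read counts (CPM, linear axis from 0) of each of the 10 genes in the 8 libraries, 2 points per group with a line at the group mean, for wild type (WT) and knockout (KO) on 1 kPa and 20 kPa. In the panels of Igf1, Igfals, Igfbp1, Igfbp4 and Irs1 the WT 20 kPa libraries stand apart from the other 6, at 369 and 367 CPM for Igf1 and 236 and 231 CPM for Igfbp1.

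Igfbp1, which encodes the acutely regulated binding protein of the liver (ENSMUSG00000020429, chromosome 11 at 7147782 to 7152546 as deposited), went the other way and had the largest change of the 10. The WT libraries held 1119 and 1152 CPM on the soft and 236 and 231 CPM on the stiff hydrogel. The KO libraries held 1873 and 1880.3 CPM on the soft and 2009 and 1905 CPM on the stiff hydrogel. The WT stiff libraries were the lowest, the WT soft libraries lay between, and the 4 KO libraries were the highest with no overlap. In WT cells Igfbp1 fell by 2.28 on the log2 scale (SE 0.035, edgeR adjusted p = 6.41e-18), to 0.206 of the soft level. In KO cells the log2 fold change was 0.06, with an interval of -0.01 to 0.13 (edgeR adjusted p = 0.685), and the interaction was 2.34 (SE 0.048, edgeR adjusted p = 7.90e-16).

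Igfbp1 was the single member called between genotypes on the soft hydrogel, where calls made up 6.67% of all genes (2.02% higher in KO and 4.65% lower). KO was higher there by 0.72 on the log2 scale (SE 0.033, edgeR adjusted p = 2.53e-11). With a fold-change threshold of 1 in place of 0.5, 0 members were called on the soft hydrogel, and with no fold-change threshold 4 were. On the stiff hydrogel KO exceeded WT by 3.07 (SE 0.036, edgeR adjusted p = 3.02e-20), or 8.38-fold. The order of the means was KO stiff, KO soft, WT soft and WT stiff, and the first of these steps did not pass the test.

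Igfbp4 (ENSMUSG00000017493, chromosome 11 at 98932070 to 98945218 as deposited) encodes a binding protein that in general restrains IGF action. It stood at 500.1 and 547 CPM in WT soft, 361 and 352 CPM in WT stiff, 565 and 566 CPM in KO soft and 596 and 587 CPM in KO stiff libraries. The WT stiff libraries were the lowest of the 8, and no groups overlapped. Igfbp4 fell in WT cells by 0.55 (SE 0.042, edgeR adjusted p = 5.49e-09), close to the fold-change threshold. Without WT soft replicate 2 the value was -0.48, under that threshold. The interaction of 0.62 (SE 0.059, edgeR adjusted p = 2.40e-07) and the KO excess of 0.73 on the stiff hydrogel (SE 0.042, edgeR adjusted p = 5.74e-11) were called.

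Igfbp2 (ENSMUSG00000039323, chromosome 1 at 72863662 to 72891633 as deposited), another secreted binding protein of the liver, had 158 and 186 CPM in WT soft, 135 and 124 CPM in WT stiff, 219 and 218 CPM in KO soft and 236 and 219 CPM in KO stiff libraries. The WT stiff libraries were again the lowest, with a wide spread between the WT soft libraries. The WT stiffness estimate of -0.41 (SE 0.065, edgeR adjusted p = 6.32e-05) stayed under the fold-change threshold, and without WT soft replicate 1 it was -0.51 and was called. On the stiff hydrogel Igfbp2 was higher in KO by 0.81 (SE 0.065, edgeR adjusted p = 6.43e-09). On the soft hydrogel the difference was 0.34 (SE 0.064, edgeR adjusted p = 0.000703) and was not called.

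Levels of different genes were compared per length, as CPM divided by the deposited gene length in kilobases. On this scale Igfbp1 was the highest of the 10 in every group, followed by Igfbp4 and Igfbp2, and Irs1 was the lowest in every group. The mean level per length of Igfbp1 was 745 in WT soft, 153 in WT stiff, 1231 in KO soft and 1283 in KO stiff cells. That of Igf1 was 10.7, 37.2, 7.88 and 7.15 in the same order. The ranks of the 10 genes were the same in TPM, which scales these levels to 1 fixed sum per library. TPM uses the same counts and deposited gene lengths, so the ranks match nearly by construction and are no separate check.

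The level per length of Igfbp1 relative to Igf1 was 67.4 and 71.6 in the WT soft libraries and 4.15 and 4.10 in the WT stiff libraries. It was 159 and 154 in the KO soft and 184 and 175 in the KO stiff libraries. The WT stiff ratios stood far below those of the other 6 libraries. Of the summed level of the 3 binding proteins, Igfbp1 made up 77.1% and 78.7% in WT soft, 49.9% and 50.8% in WT stiff and between 83.2% and 83.4% in the KO libraries. These shares and ratios describe mRNA and were not tested.

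**Figure D3:**
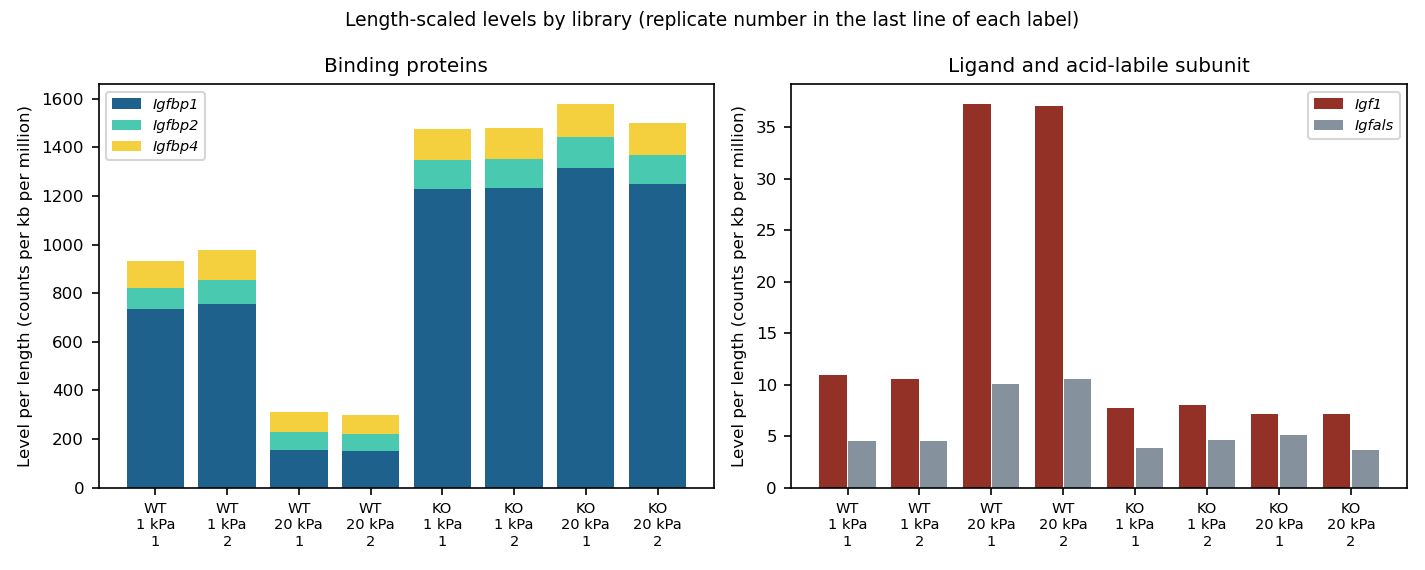
Level per length (CPM per kilobase, linear axes from 0) in each of the 8 libraries for the 3 binding proteins as stacked bars (left) and for Igf1 and Igfals as side-by-side bars (right). The summed level of the binding proteins was 309.6 and 299 in the WT stiff libraries and between 933 and 1580.1 in the others, while Igf1 was highest in the WT stiff libraries.

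The 2 receptors were not called in any comparison. Ghr, the growth hormone receptor (ENSMUSG00000055737, chromosome 15 at 3347242 to 3612974 as deposited), held 97.6 and 90.0 CPM in WT soft, 99.1 and 99.1 CPM in WT stiff, 102 and 102 CPM in KO soft and 95.6 and 95.3 CPM in KO stiff libraries. All 8 libraries lay within this narrow band, and none of the neighbouring levels differed beyond the spread. The stiffness estimate was 0.08 in WT, with an interval of -0.03 to 0.19 (edgeR adjusted p = 0.266), and -0.10 in KO, with an interval of -0.21 to 0.01 (edgeR adjusted p = 0.681). These intervals exclude a change of the fold-change threshold of 0.5 in either direction.

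Insr, the insulin receptor (ENSMUSG00000005534, chromosome 8 at 3172061 to 3329617 as deposited), held 116 and 105 CPM in WT soft, 86.0 and 91.3 CPM in WT stiff, 106 and 106 CPM in KO soft and 109 and 109 CPM in KO stiff libraries. The WT stiff libraries were the lowest and the other groups lay close together. The WT estimate of -0.32 (SE 0.056, edgeR adjusted p = 0.000133) and the KO excess on the stiff hydrogel of 0.29 (edgeR adjusted p = 0.000239) passed the adjusted p but not the fold-change threshold.

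Irs1 and Irs2 encode the main adaptors that insulin receptors phosphorylate in hepatocytes, and both were low, with 59 to 274 counts per library. Irs1 (ENSMUSG00000055980, chromosome 1 at 82210822 to 82269137 as deposited) had 7.90 and 9.33 CPM in WT soft, 2.84 and 3.45 CPM in WT stiff, 8.94 and 8.36 CPM in KO soft and 9.09 and 10.03 CPM in KO stiff libraries. The WT stiff libraries stood below the other 6, which lay close together. In WT cells Irs1 fell by 1.44 on the log2 scale (SE 0.172, edgeR adjusted p = 1.93e-06), to 0.368 of the soft level. In KO cells the estimate was 0.14, with an interval of -0.17 to 0.45 (edgeR adjusted p = 0.837). The interaction was 1.59 (SE 0.228, edgeR adjusted p = 3.30e-05), and KO against WT on the stiff hydrogel was 1.60 (SE 0.170, edgeR adjusted p = 2.90e-07).

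Irs2 (ENSMUSG00000038894, chromosome 8 at 11034681 to 11058458 as deposited) had 9.63 and 9.33 CPM in WT soft, 11.5 and 11.99 CPM in WT stiff, 10.7 and 11.6 CPM in KO soft and 8.62 and 9.88 CPM in KO stiff libraries. WT libraries were higher on the stiff and KO libraries on the soft hydrogel, and the 4 groups as a whole overlapped. Neither estimate was called, with 0.31 in WT (SE 0.127, edgeR adjusted p = 0.0619) and -0.27 in KO (SE 0.127, edgeR adjusted p = 0.658). The interaction of -0.58 (SE 0.180) was called by edgeR with an adjusted p of 0.0221, and with DESeq2 it was -0.59 with an adjusted p of 0.0962. Leaving out WT stiff replicate 2, KO soft replicate 2 or KO stiff replicate 1 also ended this call, with edgeR adjusted p-values of 0.0688, 0.0765 and 0.0938. Per length, Irs2 exceeded Irs1 1.76- and 1.45-fold in WT soft, 5.86- and 5.02-fold in WT stiff and 1.37- to 2.01-fold in KO libraries.

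Foxo1, the transcription factor at the end of the insulin branch (ENSMUSG00000044167, chromosome 3 at 52175757 to 52260642 as deposited), had 20.6 and 21.7 CPM in WT soft, 22.0 and 21.9 CPM in WT stiff, 17.1 and 17.7 CPM in KO soft and 17.0 and 17.9 CPM in KO stiff libraries. The 4 KO libraries lay below the 4 WT libraries, with no order by stiffness within the KO. The stiffness estimates were 0.06 in WT (interval -0.13 to 0.25) and 0.01 in KO (interval -0.19 to 0.20). KO against WT was -0.28 on the soft (edgeR adjusted p = 0.0440) and -0.33 on the stiff hydrogel (edgeR adjusted p = 0.00638), both under the fold-change threshold.

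Between genotypes on the stiff hydrogel, 6 of the 10 members were called, with Igfbp1, Igfbp2, Igfbp4 and Irs1 higher and Igf1 and Igfals lower in KO. Of all genes, 28.7% were called there, 13.7% higher and 15% lower. No group overlap was seen for any member on the stiff hydrogel and for 7 of the 10 on the soft hydrogel, against 74.5% and 56.2% of all genes. For the order of group levels, KO stiff was also tested against WT soft. There 6.88% of all genes were called (2.16% higher in KO and 4.72% lower). Of the members, Igfbp1 was called higher (0.79) and Igf1 lower (-0.59) in KO stiff than in WT soft. KO soft was tested against WT stiff, where 28.4% of all genes (13.2% higher and 15.2% lower) and 6 members were called. The median log2 fold change over the members was 0.12 on the stiff and 0.06 on the soft hydrogel, and over all genes 0.01 and 0.00.

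**Figure D4:**
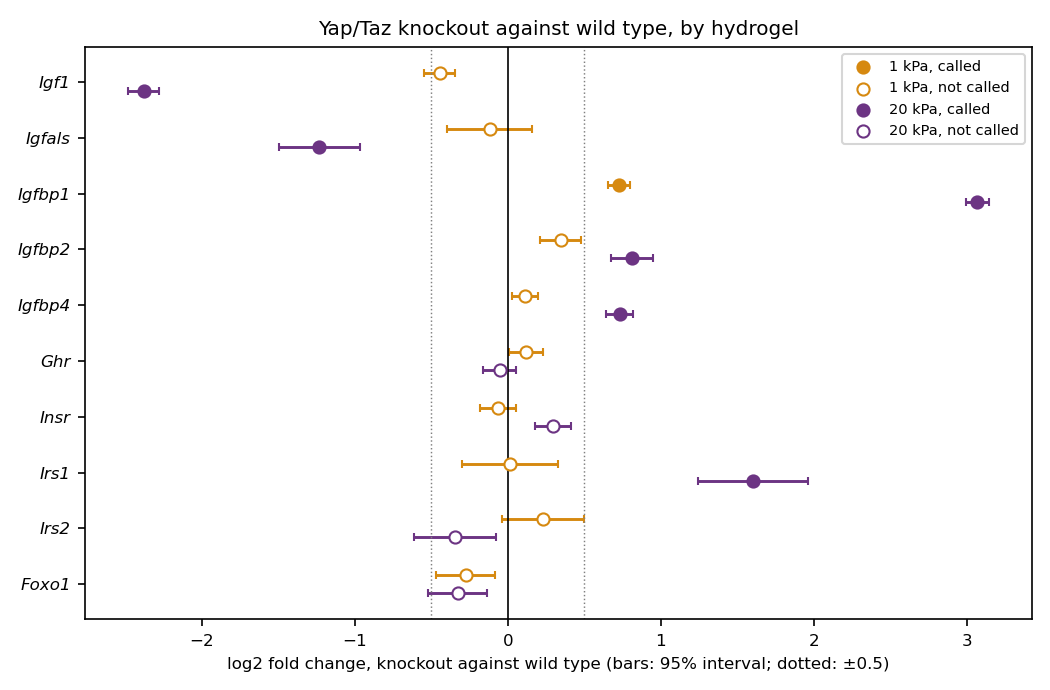
Log2 fold change of knockout against wild type for each of the 10 genes on the soft (orange) and stiff (purple) hydrogel, with bars for the 95% interval, filled points for called genes and dotted lines at 0.5 and -0.5. On the soft hydrogel Igfbp1 alone is filled, at 0.72, and on the stiff hydrogel 6 genes are filled, from -2.38 for Igf1 to 3.07 for Igfbp1.

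Markers of other liver cells were counted in every group, and their summed levels moved with the groups. Summed levels of 6 endothelial markers were 51.9 to 57.3 CPM in WT soft, 36.7 to 37.1 CPM in WT stiff and 69.0 to 73.9 CPM in KO libraries. The 7 Kupffer cell markers summed to 75.8 to 79.4, 52.7 to 59.3 and 104 to 109 CPM in the same order, and 9 stellate cell markers, with Lrat at 0 counts in WT stiff, to 36.4 to 36.5, 24.8 to 26.8 and 51.8 to 56.5 CPM. In WT cells, 3 of 6 endothelial, 4 of 7 Kupffer cell and 3 of 8 tested stellate cell markers fell with stiffness and 1 stellate cell marker (Col1a1) rose. Of all genes, 9.26% were called lower and 10% higher in WT cells. The summed levels of endothelial, Kupffer cell and stellate cell markers had the order of the group means of Igfbp1, Igfbp2, Igfbp4 and Irs1. The part of these cells in those results was not tested. Among hepatocyte markers Hnf4a (-0.98), Cyp2e1 (-1.75) and Tat (-0.72) fell and none rose, and the sum of the 8 was 88287 to 92746 CPM in WT and 61347 to 61965 CPM in KO libraries. Most of this sum was Alb, at 81923 CPM in WT soft, 86595 in WT stiff, 54977 in KO soft and 54678 in KO stiff cells. On the stiff hydrogel Hnf4a (1.17), Cyp2e1 (2.79) and Tat (1.02) were called higher in KO, and Alb (-0.66) and Cps1 (-0.68) lower. All genes gave 13.7% higher and 15% lower there. Of 4 tested cholangiocyte markers 1 rose (Krt19, 3.30), and the 6 listed markers summed to 548 to 584 CPM in WT soft, 599 to 602 CPM in WT stiff and 320.4 to 348 CPM in KO libraries, with Cftr at 0 counts in all. Most of this sum was Spp1, at 525 CPM in WT soft, 539 in WT stiff, 308 in KO soft and 288 in KO stiff cells. Sox9 stood at 38.5, 40.1, 37.0 and 36.6 CPM in the same order. In bulk RNA, fewer cells of a type and less RNA per cell cannot be told apart.

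The other genes of the axis were followed in 7 lists with 97 genes, of which 84 were tested. In WT cells 7 rose and 23 fell on the stiff hydrogel, or 35.7% against 19.3% of all genes. These lists too were chosen with earlier results of these data known. In KO cells 0 were called by edgeR or by DESeq2, with 9 at an unadjusted p under 0.05 in edgeR's test. The interaction was called for 22 of them in the positive and 8 in the negative direction, where all genes gave 8.64% and 8.21%. Between genotypes on the soft hydrogel, 7 were higher and 14 lower in KO, beside 2.02% and 4.65% of all genes. The stiff hydrogel gave 22 higher and 18 lower, beside 13.7% and 15% of all genes. For each list that follows, the counts of rises and falls in WT stand beside 10% and 9.26% of all genes.

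The list of the growth hormone branch also holds Lepr, which encodes the leptin receptor and not a part of growth hormone signaling. In this list, 2 of 13 tested genes rose and 2, Lepr among them, fell in WT cells, with a median of 0.30. Socs2 and Cish encode STAT5-induced feedback inhibitors of cytokine receptors. Socs2 had 402 and 278 counts in WT soft, 1283 and 1286 in WT stiff, 177 and 144 in KO soft and 130 and 113 in KO stiff libraries, so both WT stiff libraries were the highest. It rose in WT by 2.04 (SE 0.085, edgeR adjusted p = 1.36e-12), and Cish rose by 1.04 (SE 0.136, edgeR adjusted p = 5.85e-06). The interaction was -2.31 for Socs2 and -0.94 for Cish, and both were lower in KO on either hydrogel, by -1.14 and -3.44 for Socs2 and by -0.76 and -1.70 for Cish on the soft and stiff hydrogel. Lepr, the leptin receptor, fell by 1.73 in WT (SE 0.064, edgeR adjusted p = 2.80e-13) and Stat3 fell by 0.55 (SE 0.044, edgeR adjusted p = 9.38e-09). The transducers Jak2, Stat5a and Stat5b were not called, at -0.09, 0.08 and -0.00 in WT.

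Of the IGF system, 8 of 15 listed genes were tested, and 3 rose and 3 fell in WT cells. Igfbp3, which encodes the binding protein that carries IGF1 and the acid-labile subunit in the ternary complex, rose by 1.07 (SE 0.125, edgeR adjusted p = 1.50e-06), from 9.76 ± 0.342 to 20.5 ± 1.56 CPM (SD, n = 2). It was 3.92 ± 0.019 CPM on the soft and 3.63 ± 0.169 CPM on the stiff hydrogel in KO cells. Igfbp7 rose by 0.70, while Igfbp6 fell by 2.14 on the log2 scale and Igf2bp2, an mRNA-binding protein, fell by 0.92. Pappa and Igf2bp1 were called with a mean below the 100 counts that the rule for named genes asks for, and they were named after their values were seen, as were the uncalled genes of the lists and the called genes beyond the 2 largest rises and falls of each list. Pappa, a protease that releases IGF1 from IGFBP4, had 72 and 51 counts in WT soft, 6 and 4 in WT stiff and 144 to 175 in KO libraries. Igf2bp1 had at most 27 counts in a library. Igf2 had 0 counts in every library, and Igf1r had 13 to 51 counts and an estimate of -0.77 in WT that was not called (edgeR adjusted p = 0.169).

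Of 33 tested insulin signaling components, 1 rose and 3 fell in WT cells (12.1%), beside 19.3% of all genes. Pik3cb, a catalytic subunit of phosphoinositide 3-kinase, rose by 0.84 (SE 0.064, edgeR adjusted p = 5.81e-09). Grb10, an adaptor that inhibits insulin and IGF1 receptors, fell by 1.18 (SE 0.111, edgeR adjusted p = 9.45e-08), and Trib3, a pseudokinase that can bind AKT, fell by 1.01 (SE 0.066, edgeR adjusted p = 6.20e-10). The median of the list was -0.09.

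Of 12 FOXO1 target genes 5 fell and 0 rose in WT cells, with a median of -0.32. G6pc, the last enzyme of glucose release, fell by 1.73 (SE 0.075, edgeR adjusted p = 2.44e-12), from 55.5 ± 3.47 to 16.7 ± 0.234 CPM (SD, n = 2), and was 101 ± 1.97 and 96.6 ± 7.36 CPM on the soft and stiff hydrogel in KO cells. Bcl6, a transcriptional repressor, fell by 1.11 (SE 0.107, edgeR adjusted p = 1.35e-07), and Mttp, Ccng2 and Klf15 fell as well. Pck1, another gluconeogenic gene, had a mean of 18 counts and an estimate of -0.41 that was not called.

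Of 10 metabolic genes that insulin induces, 6 fell and 0 rose in WT cells, with a median of -0.68. Fasn, fatty acid synthase, fell by 1.17 (SE 0.044, edgeR adjusted p = 3.20e-13). It stood at 1122 ± 72.3 CPM in WT soft, 499 ± 4.19 in WT stiff, 418 ± 14.7 in KO soft and 469 ± 13.7 CPM in KO stiff cells (SD, n = 2), so the WT soft libraries were the highest. Acaca, acetyl-CoA carboxylase, fell by 1.43 (SE 0.049, edgeR adjusted p = 9.64e-14), and 49.6% of the 64-base windows of its longest transcript occur in another gene's transcript, so its counts are uncertain. On the soft hydrogel 6 of the 10 genes were lower in KO than in WT and 0 were higher, beside 4.65% and 2.02% of all genes. Insulin is known to repress FOXO1 targets and to raise the genes of this list. Members of both lists fell in WT cells, and the part of insulin signaling in these falls was not tested.

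Sex-biased liver genes, which respond to the pulse pattern of growth hormone, were low or gave mixed values. Of 6 male-biased genes 3 were tested, and all 3 fell in WT cells: Cyp2d9 by 1.34, Cyp7b1 by 0.65 and Mup20 by 0.52. Of 5 female-biased genes A1bg rose by 0.52 and Cyp2b13 fell by 1.25. Shared windows made up 18.7% for Cyp2d9, 20.5% for Cyp2b13 and 45.9% for Mup20, so reads of their close relatives cannot be separated with certainty.

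**Figure D5:**
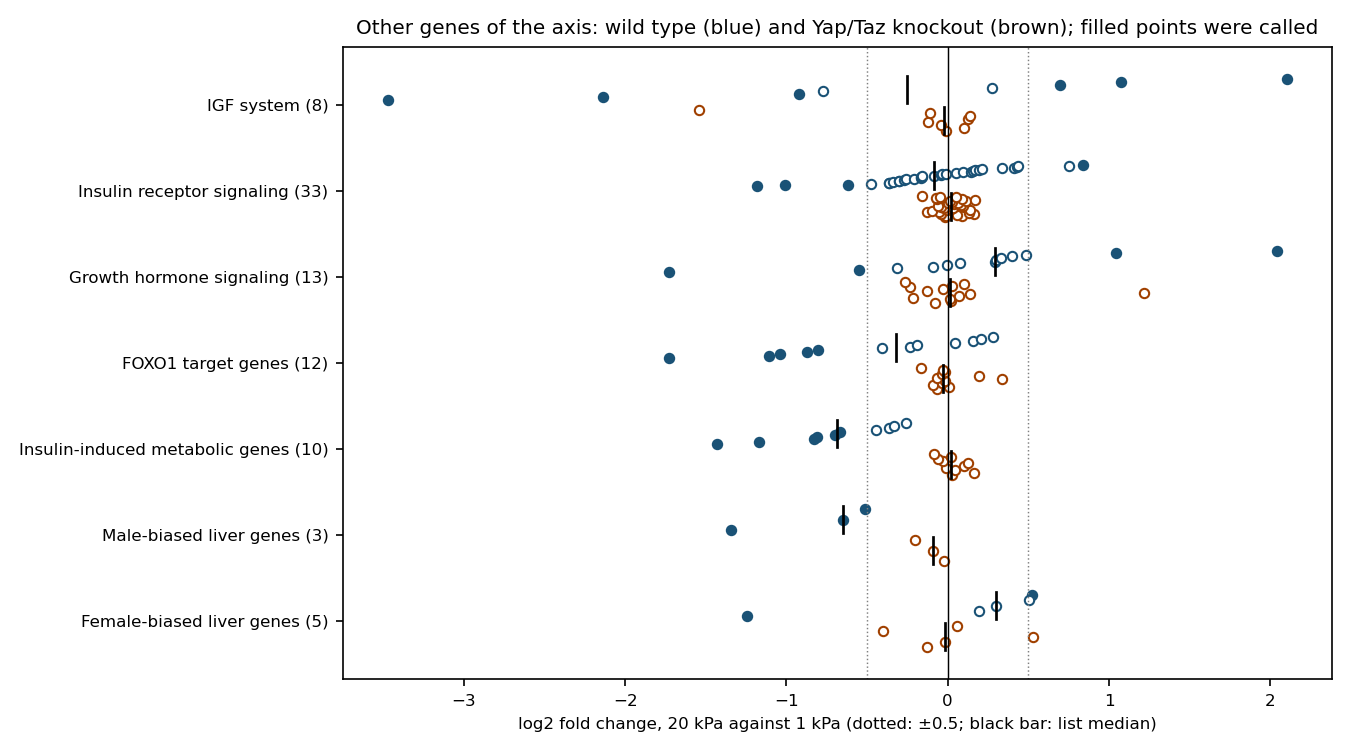
Log2 fold change of stiff against soft hydrogel for the tested genes of the 7 other lists of the axis, in wild-type (blue) and Yap/Taz knockout (brown) hepatocytes, with filled points for called genes and a black bar at each list's median. In wild type the 10 insulin-induced genes all lie below 0 with a median of -0.68, while no knockout point is filled.

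By Pearson correlation of log2 CPM over the 8 libraries, among 10036 other genes with a mean of at least 100 counts, the genes most like Igf1 were Daam1 (0.998), Ildr2 (0.998) and Spcs3 (0.998). Those most like Igfbp1 were Gclc (0.9995), Map3k5 (0.9994) and Dennd4a (0.9994). The points are 4 groups of 2 libraries, and 855 genes had a correlation over 0.95 with Igf1 and 995 with Igfbp1. They are given as a description, without a test.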

How the data were processed

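RNA-seq counts of 8 libraries, 2 per group, were used. The authors deposited raw counts per gene, made with featureCounts. The submitters' processing notes name HISAT2 2.0.5, DESeq2 1.20.0, edgeR 3.22.5, GATK 4.1.4.1 and the build mm9. Strand and multi-mapping settings are not given in the sources used here. Deposited gene positions differed from GRCm38 for all 10 members, so they are printed as deposited. They were not compared with mm9 or any other build, so their build is not known here. Promoter windows are on GRCm38.p6.

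Groups came from the sample labels. Genes were filtered with filterByExpr, scaled by TMM and tested over all 8 libraries by edgeR 4.0.16 (glmQLFit and glmQLFTest, R 4.3.3, limma 3.58.1) with 4 residual degrees of freedom and a common biological coefficient of variation of 0.0542. A call required a log2 fold change of more than 0.5 in size together with a p under 0.05 after Benjamini-Hochberg adjustment. CPM used TMM-scaled library sizes, and correlations used log2 CPM with a prior count of 2. Limits for 0 counts (3 counts, 95%) cover counting error only. Each library had 18324083 to 26442310 counts. The statistics were tested on simulated counts with a common spread for all genes and independent libraries. That setting lacks differences in spread between genes and any shared mouse, so it checks the code only. Figures used matplotlib 3.10.9 and Python 3.11.15.

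Alternatives were DESeq2 1.42.0, other scalings (RLE, upper quartile, library size only), other filters on low counts, robust empirical Bayes, other fold-change thresholds, the 2 groups alone, the replicate number as a block, and leaving out each library. Besides the members, named genes were the 2 largest rises and the 2 largest falls of each list among genes called in WT with a mean of at least 100 counts, the cell type markers, Yap1 and Wwtr1, and the 3 genes most like Igf1 and Igfbp1. Members and lists were chosen with earlier results of these data known. One called gene of the insulin signaling list is not reported here by name.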

Additional observations from a re-analysis of the deposited data

Results flagged for a closer look

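The stiffness effect differed between genotypes for 6 of the 10 genes by the interaction term of edgeR's quasi-likelihood test, given as KO minus WT on the log2 scale. Of all tested genes, 16.8% were called by this term. For Igf1 it was -1.93, with 1.79 in WT and -0.14 in KO. For Igfals it was -1.11, with 1.18 in WT and 0.06 in KO. For Igfbp1 it was 2.34, with -2.28 in WT and 0.06 in KO. For Igfbp4 it was 0.62, with -0.55 in WT and 0.07 in KO. For Irs1 it was 1.59, with -1.44 in WT and 0.14 in KO. For Irs2 it was -0.58, with 0.31 in WT and -0.27 in KO, and neither of these was called on its own. The Irs2 call was lost with DESeq2 (adjusted p = 0.0962) and without WT stiff replicate 2, KO soft replicate 2 or KO stiff replicate 1 (edgeR adjusted p = 0.0688, 0.0765 and 0.0938).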

How the results depend on the processing

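In KO cells 0 members were called between the hydrogels under every alternative run. Between genotypes on the soft hydrogel, the 1 member called became 0 when the threshold on the size of the log2 fold change was 1, and 4 when there was none. With the same 2 changes of threshold, the 5 members called in WT became 4 and 7, the 6 called for the interaction became 4 and 8, and the 6 called between genotypes on stiff became 4 and 9. With each library left out, the count was 4 to 6 in WT, 5 to 7 for the interaction, 6 between genotypes on stiff and 1 on soft. DESeq2 called 5 for the interaction, without Irs2. Some uncalled estimates changed sign, and the cause was not tested. The KO stiffness estimate of Foxo1 was -0.0058 with no filter on low counts and -0.0018 with only the 2 groups compared, and -0.038 to 0.040 when each library was left out. That of Igfals was -0.20 to 0.27 with each library left out. Between genotypes on the soft hydrogel these ranges were -0.25 to 0.0065 for Igfals, -0.13 to 0.013 for Insr and -0.10 to 0.13 for Irs1. Between genotypes on the stiff hydrogel Ghr was 0.0030 with library size only. The Igfbp2 interaction, not called at 0.46, was called without WT soft replicate 1 (0.57), WT stiff replicate 1 (0.51) or KO stiff replicate 2 (0.51). Same-numbered libraries deviated with correlations of -0.101 to 0.0424, which show no effect shared by number. Low correlations cannot decide whether the numbers pair the samples, so a pairing remains unknown. With the replicate block, 5 members were called in WT, 0 in KO, 6 for the interaction, and 1 (soft) and 6 (stiff) between genotypes. With 59 to 229 counts, Irs1 has the least depth.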
